A study of Mus musculus with 12 samples.

Results

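The genes described here are 10 heat shock proteins and chaperones, taken by name from a table of 55487 mouse genes: the cytosolic HSP70 proteins Hspa8, Hspa1a and Hspa1b, their partners Hsph1 and Dnajb1, the cytosolic HSP90 Hsp90aa1, the small heat shock protein Hspb1, the mitochondrial pair Hspd1 and Hspe1, and the endoplasmic reticulum (ER) HSP70 Hspa5. All 10 were found in the table and all 10 passed the filter on low counts that left 17301 genes. RNA was sequenced from mouse lymph nodes in 12 libraries, 3 for each of 4 groups, which the labels call biologically independent. T NDE mice had B16F10 cells, a mouse melanoma line, placed in the tongue and had the nociceptive (pain-sensing) nerves of the node inhibited. NT NDE mice had the nerves inhibited and no B16F10 cells, T NC mice had B16F10 cells and no inhibition, and NT NC mice had neither. The labels used here give no strain, sex, age, time point or method of nerve inhibition, and do not say whether a library holds nodes of 1 mouse or of several, so p-values measure the spread between libraries. In bulk RNA, fewer cells of a type and less RNA per cell cannot be told apart.

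Heat shock proteins bind unfolded proteins and help them fold or be degraded. HSP70 proteins bind and release their clients with ATP, J-domain proteins such as Dnajb1 stimulate that cycle, and HSP110 proteins such as Hsph1 exchange the nucleotide. The transcription factor Hsf1 raises the inducible cytosolic members in stressed cells by binding arrays of inverted GAA repeats, the heat shock element. Hspa5 is instead raised by the unfolded protein response, through the ER stress element bound by Atf6 with NF-Y. Lymphocytes that are activated or divide need much chaperone capacity.

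Total counts ran from 16862953 to 24467873 per library. The lymph node markers Cd3e and Ccl21a were detected in every group. A list of 15 salivary gland genes summed to 42193 CPM (counts scaled to library size) in T NDE replicate 3, to 30391 CPM in NT NC replicate 3 and to 1595 CPM in NT NC replicate 2, against 23.3 to 74.5 CPM in the other 9 libraries. A list of 8 cell cycle genes summed to 585 CPM in NT NC replicate 1 and to 803 to 1068 CPM in the other 11 libraries. The part of these differences in the results below was not tested except by leaving libraries out.

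Start regions were available from RefSeq (GRCm38.p6) for 8 of the 10 genes. They are shown because the stress elements are what the members' regulators read, and because Hspa1a and Hspa1b are near-copies. Capitals mark the matches to the heat shock pair and, in the first 2 sequences, also the bases at which the copies differ. Hspa1a (chr17:34972247-34972371) and Hspa1b (chr17:34959329-34959453), both on the minus strand, differ at 2 of these 125 bases and at 4 of the 300 bases of the whole window. Hspb1 is shown at chr5:135887784-135887853, plus strand.
Hspa1a: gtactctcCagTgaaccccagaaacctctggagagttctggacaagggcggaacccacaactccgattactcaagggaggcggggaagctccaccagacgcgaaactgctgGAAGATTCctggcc
Hspa1b: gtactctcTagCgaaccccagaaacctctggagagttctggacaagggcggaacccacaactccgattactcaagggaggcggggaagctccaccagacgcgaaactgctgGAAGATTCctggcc
Hspb1: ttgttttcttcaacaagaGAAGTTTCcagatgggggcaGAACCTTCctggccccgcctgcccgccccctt

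Longer contiguous arrays were present in the next 2 stretches, and the last holds the ER stress element. Hspe1 is shown at chr1:55088053-55088082 on the plus strand, a stretch that is exonic for Hspd1 on the other strand. Hsph1 is shown at chr5:149636279-149636308 on the minus strand and Hspa5 at chr2:34772020-34772049 on the plus strand, both within exons of their own genes. Capitals mark the whole motif match.
Hspe1: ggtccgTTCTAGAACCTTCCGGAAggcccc
Hsph1: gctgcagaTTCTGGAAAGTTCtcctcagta
Hspa5: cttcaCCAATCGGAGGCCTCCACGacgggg

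Both strands were searched. A pair of repeats, GAANNTTC or TTCNNGAA, occurred in 6 of the 8 genes with a window, against 15.1% of 32851 mouse start windows of 300 bases. The longer triplet, GAANNTTC followed by NNGAA or TTCNNGAA followed by NNTTC, holds the pair and occurred in 3 genes (Hsph1, Hspe1 and Hspd1), against 0.603% of windows. The ER stress element, CCAAT and CCACG with 9 bases between them, occurred in Hspa5 and in 0.119% of windows. Both windows of Dnajb1 held none of these letters. Hspd1 and Hspe1 lie head to head on chromosome 1, and their annotated genes overlap at their starts, so they share the array printed for Hspe1. These are matches of letters in a window, not measured binding.

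The level of the members in these nodes spanned nearly the whole range of expressed genes. Per kilobase of exon, Hspa8, the constitutive HSP70, averaged 245 CPM and ranked 130 of 17301 genes. Hspa5 averaged 108 CPM per kilobase, Hsp90aa1 72.6, Hspd1 68.1 and Hspe1 65.0. Part of the sequence of 4 of these genes also occurs in other genes, and how reads there were counted is not known: 38.6% of the 50-base stretches of Hspa8, 47.5% of Hsp90aa1, 39.7% of Hspd1 and 18.4% of Hspe1, against 0% of Hspa5. Dnajb1 averaged 20.7, Hsph1 8.86 and Hspb1 7.09 CPM per kilobase. These levels and ranks depend on the length used, all annotated exons of a gene merged. That was 3204 bases for Dnajb1 and 7266 for Hsph1, whose mean CPM before division were close, at 66.3 and 64.3. The stress-inducible HSP70 genes were close to the floor of the table: Hspa1b averaged 0.849 CPM per kilobase (20 to 109 counts a library) and Hspa1a 0.290 (12 to 32 counts a library), ranks 13862 and 15934. Of their 50-base stretches, 62.3% of Hspa1b and 60.3% of Hspa1a also occur in other genes. Whether reads there were counted or dropped is not known, so these low ranks hold only for the counts as given.

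None of the 10 members passed the edgeR quasi-likelihood test (Benjamini-Hochberg adjusted p under 0.05 over 17301 genes) in any of the 4 comparisons of 2 groups, in the interaction or in the 2 averaged comparisons. The background was as low: 0% of genes passed in T NC against NT NC, 0% in T NDE against T NC, 0% in NT NDE against NT NC, 0.00578% in T NDE against NT NDE, 0% in the interaction, 0.0983% in NDE against NC averaged over tumour status and 0% in T against NT averaged over nerve status. At an unadjusted p under 0.05, 1 member stood in T NC against NT NC, 2 in NT NDE against NT NC, 4 in averaged NDE against NC, 2 in averaged T against NT and 0 in the others. Over all genes those shares were 7.80%, 10.4%, 9.20% and 4.50%, with 5.83% in T NDE against T NC, 3.70% in T NDE against NT NDE and 7.11% in the interaction. DESeq2 and limma-voom also called 0 members in each comparison. Over all genes DESeq2 called 40 in T NC against NT NC, 44 in T NDE against T NC, 138 in NT NDE against NT NC, 43 in the interaction and 6 in averaged T against NT, where limma-voom called 0 in each. For averaged NDE against NC, where both methods called genes, the counts are given in the last section.

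**Figure D1:**
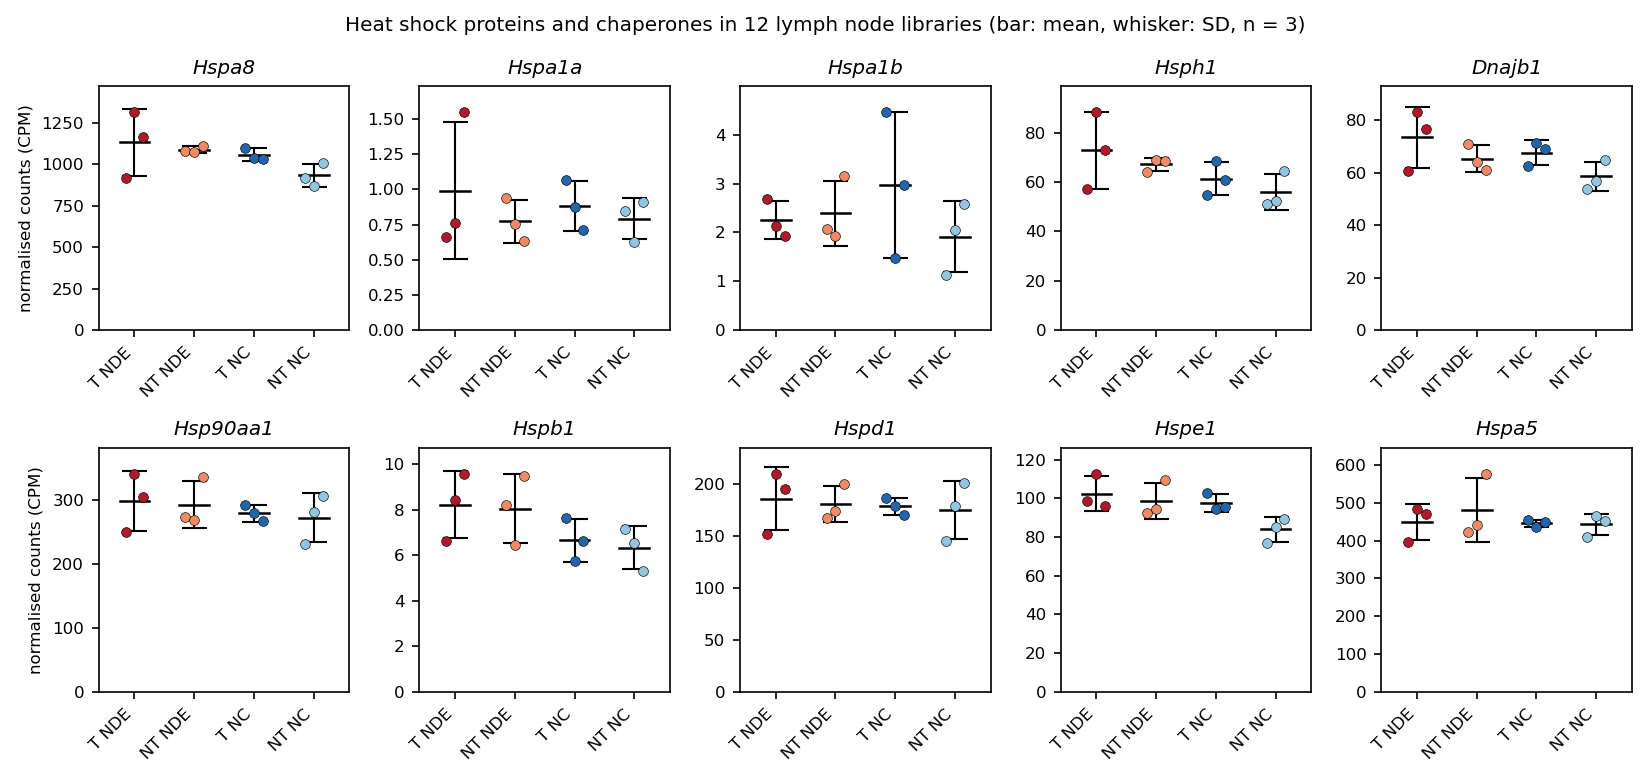
Normalised counts (CPM, linear axes from 0) of the 10 genes in each library, by group, with the mean as a bar and the SD as a whisker (n = 3). The groups overlap for most genes; the 3 NT NC libraries of Hspa8 and of Hspe1 lie below the 3 NT NDE and the 3 T NC libraries.

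Hspa8, which folds new proteins and uncoats vesicles in unstressed cells, had 915, 1313 and 1166 CPM in T NDE libraries and 1077, 1073 and 1111 CPM in NT NDE libraries. It had 1100, 1039 and 1030 CPM in T NC libraries and 920, 871 and 1010 CPM in NT NC libraries. All NT NC values were below all NT NDE and all T NC values, while T NDE reached from below most other libraries to the highest value of the series. The log2 fold change was 0.22 (SE 0.10) in NT NDE against NT NC, edgeR adjusted p = 0.481, and 0.18 (SE 0.10) in T NC against NT NC, adjusted p = 0.689. In T NDE against T NC it was 0.10 (SE 0.10), adjusted p = 0.926.

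Hspa1a and Hspa1b encode the inducible HSP70 protein and lie beside each other on chromosome 17. Hspa1a had 0.658, 0.761 and 1.55 CPM in T NDE, 0.935, 0.751 and 0.631 in NT NDE, 1.06, 0.877 and 0.711 in T NC and 0.844, 0.625 and 0.909 in NT NC libraries. Hspa1b had 2.69, 2.13 and 1.93 CPM in T NDE, 2.08, 1.93 and 3.15 in NT NDE, 4.46, 1.48 and 2.96 in T NC and 1.13, 2.04 and 2.58 in NT NC libraries. The groups overlapped for both genes, and the highest library was T NDE replicate 3 for Hspa1a and T NC replicate 1 for Hspa1b. The 2 genes share much sequence: 60.3% of the 50-base stretches of Hspa1a and 62.3% of those of Hspa1b occur in another gene. Whether shared reads were counted, and how they were divided between the 2 genes, cannot be checked. Summed, they averaged 3.24 ± 0.31 CPM in T NDE, 3.16 ± 0.57 in NT NDE, 3.85 ± 1.59 in T NC and 2.71 ± 0.76 in NT NC (SD, n = 3 each). The sum had a log2 fold change of 0.51 (SE 0.29) in T NC against NT NC, edgeR adjusted p = 0.688, and -0.25 (SE 0.29) in T NDE against T NC, adjusted p = 0.928. At these counts the intervals were wide: the 95% confidence interval of the fold in T NC against NT NC ran from 0.884 to 2.70 for Hspa1b and from 0.649 to 1.97 for Hspa1a.

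Hsph1, the HSP110 nucleotide exchange factor, had 57.1, 88.3 and 73.0 CPM in T NDE, 64.3, 69.0 and 68.4 in NT NDE, 54.9, 68.5 and 60.8 in T NC and 51.2, 52.3 and 64.4 in NT NC libraries. NT NDE replicates lay within a narrow band, and every other group was spread more widely. Averaged over tumour status, the log2 fold change of NDE against NC was 0.26 (SE 0.10, edgeR adjusted p = 0.476). It was 0.25 (SE 0.14) in T NDE against T NC and 0.26 (SE 0.14) in NT NDE against NT NC, and the difference between these (-0.02, SE 0.20) gave an adjusted p of 0.992. These comparisons share libraries with the average.

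Dnajb1, the J-domain partner of inducible HSP70, had 60.8, 83.2 and 76.8 CPM in T NDE, 71.0, 64.1 and 61.0 in NT NDE, 62.5, 71.6 and 69.0 in T NC and 54.0, 57.1 and 64.9 in NT NC libraries. Its groups overlapped in every comparison. T against NT averaged over nerve status gave 0.19 (SE 0.08, edgeR adjusted p = 0.992).

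Hsp90aa1, the inducible cytosolic HSP90 that matures kinases and steroid receptors, had 249, 341 and 305 CPM in T NDE, 273, 269 and 335 in NT NDE, 291, 279 and 266 in T NC and 230, 281 and 305 in NT NC libraries. All its groups overlapped, with log2 fold changes of 0.03 to 0.10 in the 4 comparisons of 2 groups. Hspb1, a small heat shock protein that holds unfolded clients without ATP, had 6.64, 8.42 and 9.57 CPM in T NDE, 8.21, 6.43 and 9.46 in NT NDE, 7.61, 5.73 and 6.63 in T NC and 7.15, 6.54 and 5.30 in NT NC libraries. Its averaged NDE against NC log2 fold change was 0.32 (SE 0.13, edgeR adjusted p = 0.493), the largest of the 10, at 105 to 198 counts a library. Of its 50-base stretches, 48.8% also occur in the pseudogene Hsp25-ps1, which held 0 to 4 counts a library.

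Hspd1 and Hspe1 form the mitochondrial chaperonin, Hspd1 as the barrel and Hspe1 as its lid. Hspe1 had 98.5, 113 and 96.3 CPM in T NDE, 92.6, 94.5 and 109 in NT NDE, 103, 94.6 and 95.6 in T NC and 76.9, 85.4 and 89.6 in NT NC libraries. Every NT NC value was below every NT NDE value, a separation that 9.71% of all genes show, and below every T NC value, which 7.78% show. Its log2 fold change was 0.23 (SE 0.08, edgeR adjusted p = 0.352) in NT NDE against NT NC and 0.22 (SE 0.08, edgeR adjusted p = 0.570) in T NC against NT NC. Hspd1 had 152, 210 and 195 CPM in T NDE, 168, 174 and 200 in NT NDE, 186, 179 and 170 in T NC and 145, 178 and 201 in NT NC libraries. Hspd1 overlapped in every comparison, with 0.04 (SE 0.13) in NT NDE against NT NC. Whether the 2 genes' fold changes differ was not tested.

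Hspa5, the main ER chaperone, had 395, 484 and 470 CPM in T NDE, 423, 443 and 578 in NT NDE, 454, 437 and 449 in T NC and 411, 466 and 453 in NT NC libraries. NT NDE replicate 3 was the highest of the 12 and all groups overlapped. The log2 fold change was 0.12 (SE 0.11) in NT NDE against NT NC, edgeR adjusted p = 0.745, and 0.01 (SE 0.11) in T NDE against T NC, adjusted p = 0.995. Plasma cell genes, which accompany high Hspa5 in secreting cells, summed to 346 to 577 CPM in T NDE, 420 to 732 in NT NDE, 488 to 694 in T NC and 377 to 882 in NT NC libraries.

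**Figure D2:**
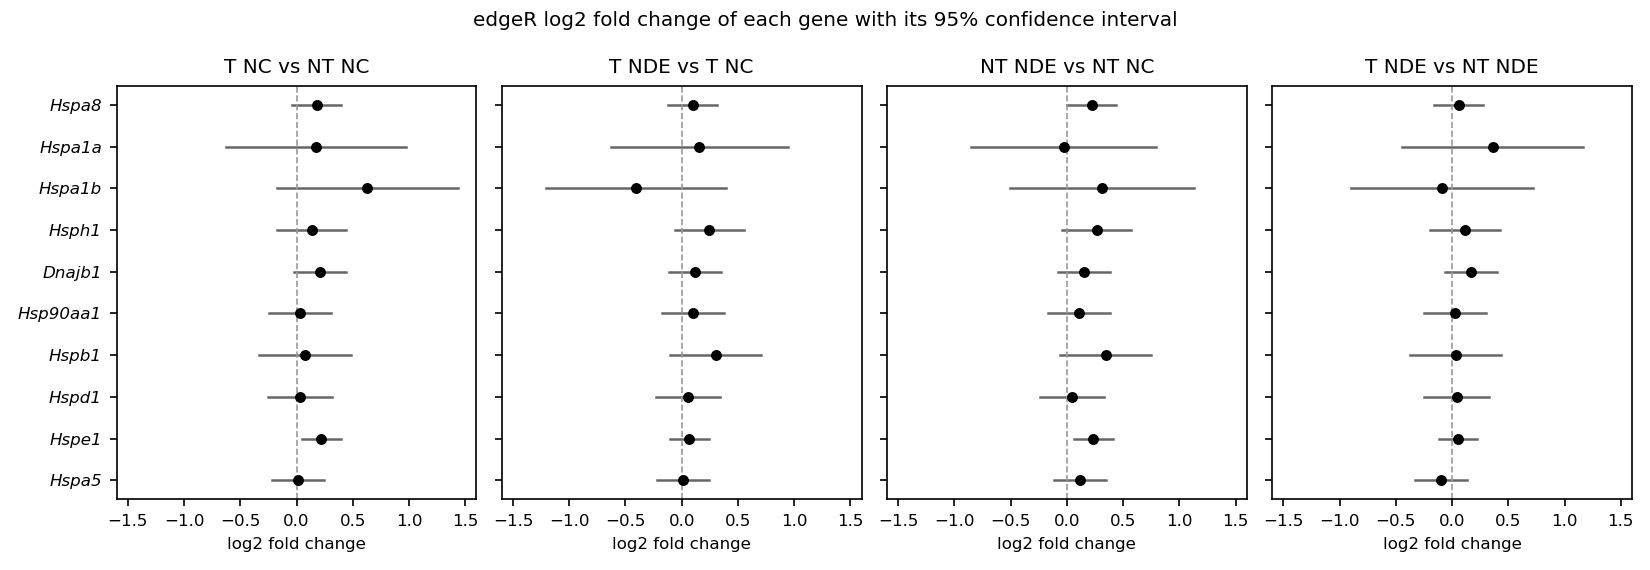
Log2 fold change of each gene (point) with its 95% confidence interval (line) from edgeR in the 4 comparisons of 2 groups; the dashed line is no change. Most points lie right of 0, and only the lines of Hspe1 (both comparisons with NT NC) and Hspa8 (NT NDE against NT NC) stay clear of it, before adjustment over all genes.

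The signs leaned one way. T NC was above NT NC for 10 of 10 members (median log2 0.16, against -0.01 for all genes, of which 48.0% were above 0). NT NDE was above NT NC for 9 of 10 (median 0.19) and T NDE above T NC for 9 of 10 (median 0.10), with 51.1% and 52.7% of all genes above 0. T NDE was above NT NDE for 8 of 10 (median 0.05), with 50.3% of all genes. The members vary together and the comparisons share groups, so these counts are not independent. No member's sign differed when DESeq2 size factors replaced TMM, but single libraries moved the counts. T NC against NT NC had 7 members above 0 without T NC replicate 1, and also 7 without NT NC replicate 1. Without T NDE replicate 2, T NDE against T NC had 4 and T NDE against NT NDE had 3. NT NDE against NT NC had 7 to 10 on leaving out each library in turn. In the interaction 2 of 10 members were above 0, where 51.1% of all genes were. On leaving out each library that member count was 0 to 7, with 7 without T NDE replicate 1.

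Separation of single libraries was rarer. In T NC against NT NC, 2 of 10 members (Hspa8 and Hspe1) were higher with no overlap, against 7.78% of all genes, and the same 2 in NT NDE against NT NC, against 9.71%. In T NDE against T NC it was 0 of 10 (4.55% of all genes), in T NDE against NT NDE 0 of 10 (4.10%), in averaged NDE against NC 0 of 10 (0.191%) and in averaged T against NT 0 of 10 (0.116%). Without T NDE replicate 1 the count in T NDE against T NC was 7 of 10, against 10.4% of all genes, with Hspa1a, Hspa1b and Hspe1 the exceptions, and in T NDE against NT NDE it was 3, against 8.66%. The library left out was among the lowest 3 of 12 for 6 members. T NDE then held only replicate 2, the highest of 12 for 6 members, and replicate 3, with 42193 CPM of the salivary list. Without NT NC replicate 3 the counts were 4 in T NC against NT NC (12.4% of all genes) and 4 in NT NDE against NT NC (15.1%). The last was also 4 without NT NDE replicate 2 (14.5%). Without the 3 libraries rich in salivary transcripts, which leaves NT NC replicate 1 alone in its group, they were 8 and 8 (27.0% and 28.7%). For the 8 members other than Hspa1a and Hspa1b, the 95% confidence intervals of the fold in the 4 comparisons of 2 groups lay between 0.773 and 1.68, both bounds from Hspb1.

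Some libraries were high or low for many members at once. T NDE replicate 2 was the highest of 12 for 6 members (Hspa8, Hsph1, Dnajb1, Hsp90aa1, Hspd1 and Hspe1), while T NDE replicate 1 was among the lowest 3 for 6. T NDE replicate 2 exceeded replicate 1 in 9 of 10 members, with a median log2 difference of 0.40, against 0.00 for all genes. NT NC replicate 1, the library with the lowest cell cycle sum, was the lowest of 12 for 6 members (Hspa1b, Hsph1, Dnajb1, Hsp90aa1, Hspd1 and Hspe1). The cell cycle sums of T NDE replicates 1 and 2 were close to each other, at 956 and 969 CPM. Whether the cell cycle sum bears on the members was not tested. T NDE replicate 2 against replicate 1 had the largest median log2 difference of the members among the 12 pairs of libraries within a group. The smallest in size, NT NDE replicate 2 against replicate 1, was -0.015.

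**Figure D3:**
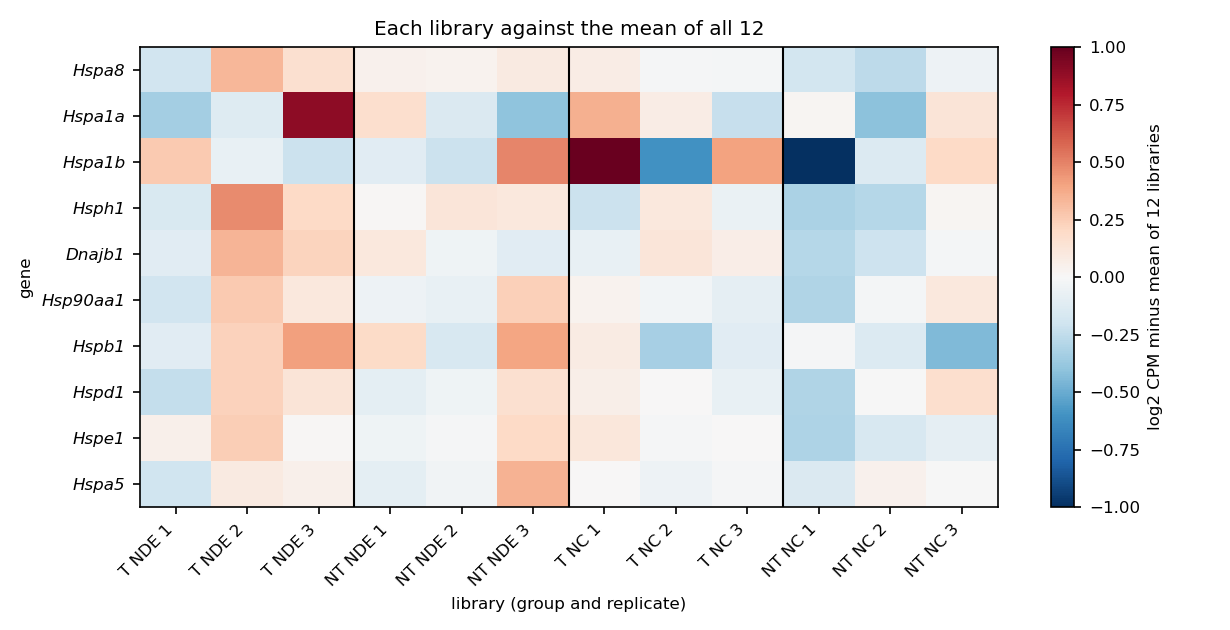
Each library's log2 CPM minus the mean of the 12 libraries (colour) for each gene (rows), with libraries in columns by group and replicate. T NDE replicate 2 is high and NT NC replicate 1 low across most rows; Hspa1a and Hspa1b, with few counts, vary most and not together.

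Across the 12 libraries, 41 of 45 pairs of members had a Pearson r above 0 and 10 had an r of 0.7 or more. The points share library composition and depth, so these are descriptions without a test. Hsp90aa1 and Hspd1 moved most closely: r = 0.97, Spearman's rho = 0.97, r = 0.98 around the group means and 0.94 without the 2 libraries farthest from the median of Hsp90aa1, and Hspd1 ranked 1 of 17300 partners of Hsp90aa1. Hsph1 had r = 0.86 with Dnajb1, which fell to 0.69 without the 2 libraries farthest from the median of Hsph1. With Hspa8 it had 0.86, which fell to 0.69 without the 2 farthest from the median of Hspa8. Hspe1 and Hspd1 had r = 0.63, with 0.78 around the group means and 0.17 without the 2 libraries farthest from the median of Hspe1. Hspa1a and Hspa1b had r = -0.08.

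**Figure D4:**
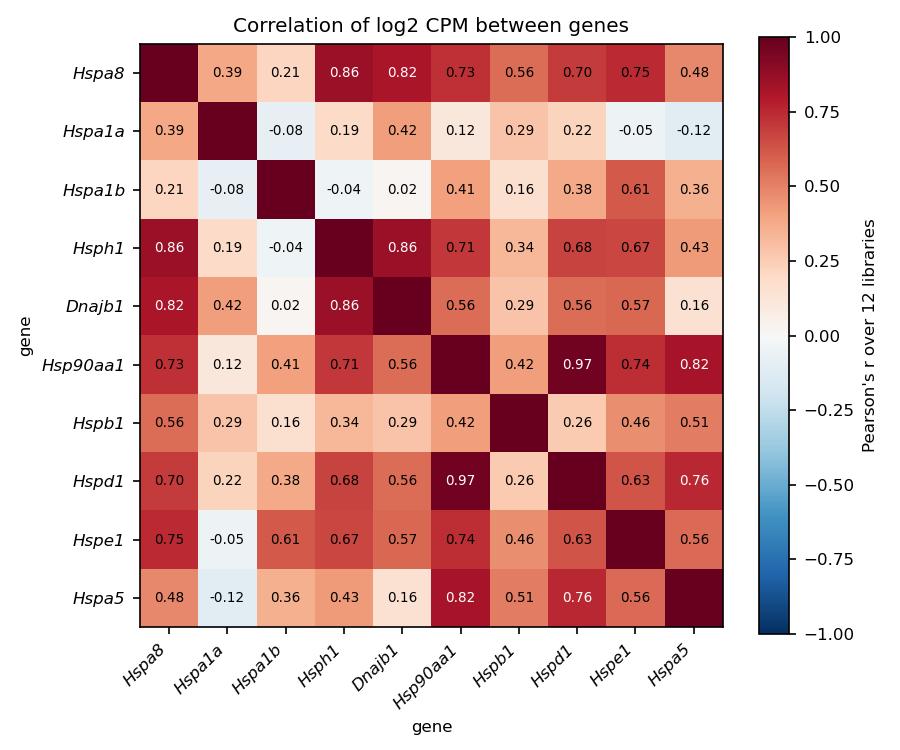
Pearson's r of log2 CPM over the 12 libraries for each pair of the 10 genes (colour and number). Hsp90aa1 with Hspd1 has the highest value, 0.97, and the rows of Hspa1a and Hspa1b are the palest.

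The genes whose pattern was most like the mean log2 CPM of Hspa1a, Hspa1b, Hsph1 and Dnajb1 over the 12 libraries were Phgdh (r = 0.95), Gm4459 (0.94), Egln3 (0.91), Cs (0.91), Psmc4 (0.91), Atp5b (0.88), Ybx3 (0.87), Gm16062 (0.87), Srm (0.87) and Chchd1 (0.86). Phgdh makes serine, Cs and Atp5b act in mitochondrial energy metabolism, Psmc4 is a proteasome subunit and Srm makes spermidine. The listed genes were picked for their high r, without a test. The averaged genes did not share a single pattern. Hspa1b had r = -0.08 with Hspa1a, -0.04 with Hsph1 and 0.02 with Dnajb1. Hspa1a had 0.19 with Hsph1 and 0.42 with Dnajb1, and Hsph1 had 0.86 with Dnajb1. Hspa1a and Hspa1b also had few counts, so the list cannot be read as genes that follow all the averaged genes. Against the mean of Hsph1 and Dnajb1 alone, chosen after the values were seen, the most alike gene was Dnaja1 (r = 0.91), another J-domain partner of HSP70.

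Other chaperone lists likewise had 0 genes past the edgeR test in either direction, in each comparison. Averaged NDE against NC had 18 of 22 other cytosolic, 22 of 25 other ER and 10 of 12 other mitochondrial genes above 0. The smaller lists there had 7 of 9 HSP70 and HSP110 relatives, 6 of 8 TRiC, 4 of 6 prefoldin, 3 of 4 heat shock factor and 1 of 5 small heat shock genes. The lists overlap: Hspa9 is counted with both the relatives and the mitochondrial genes, and Hyou1 with both the relatives and the ER genes. Of all genes 53.7% were above 0 in that average, which shares its libraries with the comparisons of 2 groups. In those the counts differed more. Of 22 other cytosolic chaperones and co-chaperones, 17 were above 0 in T NC against NT NC, 15 in T NDE against T NC, 18 in NT NDE against NT NC, 11 in T NDE against NT NDE and 6 in the interaction, with medians of 0.05, 0.04, 0.10, -0.0022 and -0.06. In NT NDE against NT NC 4 of the 22 had an unadjusted p under 0.05, where 10.4% of all genes did and 51.1% were above 0, and in T NDE against NT NDE 0 did. The HSP70 to HSP90 adaptor Stip1 had 109 ± 10.5 CPM in T NDE, 115 ± 6.29 in NT NDE, 104 ± 4.23 in T NC and 95.2 ± 7.74 in NT NC libraries (SD, n = 3 each). Its log2 fold change was 0.27 in NT NDE against NT NC (edgeR adjusted p = 0.258) and -0.21 in the interaction (adjusted p = 0.730). The HSP90 co-chaperone Fkbp5 had 0.33 in NT NDE against NT NC (adjusted p = 0.273) and -0.19 in T NDE against NT NDE (adjusted p = 1.00).

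Of 25 other ER chaperones and unfolded protein response genes, 13 were above 0 in T NC against NT NC, 17 in T NDE against T NC, 19 in NT NDE against NT NC, 7 in T NDE against NT NDE and 11 in the interaction, with medians of 0.00017, 0.04, 0.05, -0.05 and -0.02. In NT NDE against NT NC 6 of the 25 had an unadjusted edgeR p under 0.05, where 10.4% of all genes did, and in T NDE against NT NDE 0 did. Sdf2l1 had 0.41 in NT NDE against NT NC (edgeR adjusted p = 0.321), -0.25 in T NDE against NT NDE (adjusted p = 1.00) and -0.41 in the interaction (adjusted p = 0.698). Manf had 0.33, -0.18 and -0.33 in the same comparisons, with adjusted p of 0.337, 1.00 and 0.698. Pdia4 had 0.35 in NT NDE against NT NC (adjusted p = 0.337).

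The counts of the smaller lists also differed between comparisons. Of 6 prefoldin subunits, 6 were above 0 in T NC against NT NC, 0 in T NDE against T NC, 5 in NT NDE against NT NC and 2 in T NDE against NT NDE. For the 8 subunits of the TRiC chaperonin, which folds actin and tubulin, those counts were 8, 4, 6 and 7. They were 5, 9, 9 and 7 of 12 other mitochondrial chaperones and proteases, and 4, 7, 7 and 5 of 9 tested HSP70 and HSP110 relatives. Among 5 tested small heat shock proteins the counts were 4, 3, 1 and 5, and among 4 tested heat shock factors and their regulators 2, 2, 3 and 2. Hsf1 had 0.09 (SE 0.08) in NT NDE against NT NC, edgeR adjusted p = 0.721, and 0.16 (SE 0.08) in T NDE against T NC, adjusted p = 0.866. It had 0.13 (SE 0.06) in averaged NDE against NC, adjusted p = 0.522, and -0.03 (SE 0.08) in T NC against NT NC, adjusted p = 0.949.

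Immediate early genes, which respond rapidly to cell stimulation, were above 0 for 8 of 10 in T NC against NT NC (median 0.14), 3 of 10 in T NDE against T NC (-0.10), 6 of 10 in NT NDE against NT NC (0.04), 4 of 10 in T NDE against NT NDE (-0.05) and 2 of 10 in the interaction (-0.10). Jun had 37.1 ± 1.92 CPM in T NDE, 43.6 ± 0.95 in NT NDE, 43.6 ± 8.10 in T NC and 32.2 ± 1.44 in NT NC libraries (SD, n = 3 each). Its log2 fold change was 0.44 in T NC against NT NC (edgeR adjusted p = 0.465), 0.44 in NT NDE against NT NC (adjusted p = 0.205), -0.23 in T NDE against T NC (adjusted p = 0.851), -0.23 in T NDE against NT NDE (adjusted p = 1.00) and -0.67 in the interaction (adjusted p = 0.501). Dusp1, with the smallest p of the list in T NDE against NT NDE, went the other way there, at 0.64 (SE 0.24, edgeR adjusted p = 0.9998). Of 8 cell cycle genes, 8 were above 0 in T NC against NT NC (median 0.13), 6 in T NDE against T NC (0.04), 8 in NT NDE against NT NC (0.23), 5 in T NDE against NT NDE (0.01) and 0 in the interaction (-0.11). The part of either list in the chaperones' values was not tested.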

How the data were processed

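Lymph node RNA of 4 groups was sequenced in 3 libraries each. Trizol extraction and standard Illumina mRNA libraries are named in the labels' protocols. The authors deposited whole-number read counts per gene, not normalized. HISAT2 2.0 and mm10 are named in the submitters' processing notes; for the counter, annotation, strand setting and multi-mapping reads, the method is not given in the sources used here, so the division of reads between near-copies cannot be checked. Counts were fitted with edgeR 4.0.16 (R 4.3.3): TMM, filterByExpr by group (minimum count 10, minimum total 15), the robust quasi-likelihood fit with 1 mean per group over all 12 libraries, two-sided, Benjamini-Hochberg adjustment within each of 7 contrasts, threshold 0.05. CPM of the members use TMM; marker sums use library totals. Log2 CPM for correlations used a prior count of 2. Alternatives were DESeq2 1.42.0, limma-voom 3.58.1, DESeq2 size factors, other filters, a replicate block, Hspa1a and Hspa1b summed, and libraries left out. The fit was tested on simulated data. With 3 libraries a group, 0.1 is the smallest p that an exact permutation allows. Levels per kilobase used merged exons of GENCODE M21. The members and lists were chosen with earlier results of these data known; all 10 members, and the 3 genes of smallest p of a list where named, were the genes to report. No 2 libraries of the same group agreed within counting noise (chi-square per gene at least 6.30); libraries of different groups were not compared this way.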

Additional observations from a re-analysis of the deposited data

How the results depend on the processing

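No member that was tested passed the edgeR threshold under any of the 22 alternatives, and the smallest adjusted p of a member was 0.145. Not every member was tested under each. Hspa1a was left out by the filter of at least 1 CPM in 3 libraries. Where Hspa1a and Hspa1b were summed, neither was tested by itself. Of 1489 fold changes of members under alternatives, 1375 kept their sign and 114 changed it, 83 of these on leaving out 1 library; the cause was not tested. Of 18 same-numbered pairs of libraries from different groups, 3 correlated above 0.1 around the group means, from -0.13 to 0.52. The highest was T NDE replicate 3 with NT NC replicate 3, the 2 libraries richest in salivary transcripts. Differently numbered pairs were not compared, so whether the replicate numbers pair the libraries cannot be judged. The fit with the replicate block called 0 members in each comparison. Leaving out each library in turn gave 70 ranges of log2 fold change: 40 crossed 0 and are given here, 20 kept their sign with a move of over 1.5 times, and 10 stayed within that. Hspa8 ranged from -0.023 to 0.23 in T NDE against T NC, -0.063 to 0.19 in T NDE against NT NDE and -0.24 to 0.0082 in the interaction. Hspa1a ranged from -0.33 to 0.37 in T NDE against T NC, -0.19 to 0.10 in NT NDE against NT NC, -0.12 to 0.58 in T NDE against NT NDE, -0.30 to 0.40 in the interaction and -0.18 to 0.17 in averaged NDE against NC. Hspa1b ranged from -0.73 to 0.030 in T NDE against T NC, -0.23 to 0.17 in T NDE against NT NDE and -0.21 to 0.17 in averaged NDE against NC. Hsph1 ranged from -0.046 to 0.26 in T NDE against NT NDE and -0.18 to 0.13 in the interaction. Dnajb1 ranged from -0.13 to 0.082 in the interaction. Hsp90aa1 ranged from -0.071 to 0.13 in T NC against NT NC, -0.0093 to 0.21 in T NDE against T NC, -0.0048 to 0.20 in NT NDE against NT NC, -0.079 to 0.14 in T NDE against NT NDE, -0.11 to 0.10 in the interaction and -0.021 to 0.092 in averaged T against NT. Hspb1 ranged from -0.037 to 0.18 in T NC against NT NC, -0.10 to 0.17 in T NDE against NT NDE, -0.18 to 0.085 in the interaction and -0.010 to 0.12 in averaged T against NT. Hspd1 ranged from -0.088 to 0.14 in T NC against NT NC, -0.043 to 0.18 in T NDE against T NC, -0.072 to 0.16 in NT NDE against NT NC, -0.058 to 0.17 in T NDE against NT NDE, -0.10 to 0.13 in the interaction, -0.0087 to 0.11 in averaged NDE against NC and -0.024 to 0.10 in averaged T against NT. Hspe1 ranged from -0.0061 to 0.11 in T NDE against T NC and -0.021 to 0.14 in T NDE against NT NDE. Hspa5 ranged from -0.040 to 0.049 in T NC against NT NC, -0.045 to 0.090 in T NDE against T NC, -0.034 to 0.20 in NT NDE against NT NC, -0.18 to 0.058 in T NDE against NT NDE, -0.19 to 0.039 in the interaction, -0.014 to 0.11 in averaged NDE against NC and -0.085 to 0.039 in averaged T against NT. Without the 3 libraries rich in salivary transcripts, T NC against NT NC was -0.090 for Hspb1, T NDE against T NC was -0.33 for Hspa1a and -0.021 for Hspa5, T NDE against NT NDE was -0.11 for Hspa1a and 0.021 for Hspa1b and -0.082 for Hspb1, the interaction was -0.20 for Hspa1a and 0.0076 for Hspb1 and -0.29 for Hspd1, averaged NDE against NC was -0.23 for Hspa1a and 0.39 for Hspa1b, averaged T against NT was -0.0086 for Hspa1a and 0.0056 for Hspa5 and -0.086 for Hspb1. Without the 2 richest of them, T NC against NT NC was -0.033 for Hspb1, T NDE against T NC was -0.32 for Hspa1a and -0.020 for Hspa5, NT NDE against NT NC was 0.083 for Hspa1a, T NDE against NT NDE was -0.11 for Hspa1a and 0.022 for Hspa1b and -0.082 for Hspb1, the interaction was -0.41 for Hspa1a and -0.13 for Hspd1, averaged NDE against NC was -0.12 for Hspa1a and 0.13 for Hspa1b, averaged T against NT was -0.057 for Hspb1. With limma-voom, the interaction was -0.0082 for Hspd1, averaged NDE against NC was 0.020 for Hspa1b. With no filter, T NDE against T NC was -0.0027 for Hspa5, the interaction was -0.00037 for Hspd1. With the replicate block, the interaction was -0.011 for Hspd1. The number of all genes called moved more: 17 in averaged NDE against NC became 130 with DESeq2, 5 with limma-voom and 1 with the replicate block, and 0 in NT NDE against NT NC became 138, 0 and 3. With no filter the 17 became 41, and on leaving out 1 library they ran from 0 (without NT NDE replicate 1 or 2) to 30 (without T NDE replicate 1). Averaged T against NT, with 0, reached 22 without T NDE replicate 3. Depth limits Hspa1a, at 12 to 32 counts a library, and Hspa1b, at 20 to 109.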
